A study of Mus musculus with 15 samples.

Results

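Binding of HSF1 (heat shock factor 1, which switches on chaperone genes when proteins misfold) was examined at 10 endothelial and vascular genes. The tissue was brown fat (BAT) of mice, a depot specialised for heat production. The genes are Vegfa, Flt1, Kdr, Tek, Ephb4, Eng, Cdh5, Pecam1, Clec14a and Mmrn2, which are 10 of 21883 protein-coding genes. They were chosen by name with the peaks of all 10 deposited HSF1 ChIP-seq lists already known, so the peak calls, folds and ranks given here are the values that selected them, and they are described without a test. A peak belonged to a gene when it overlapped the gene span plus 5 kb on each side by at least 1 bp. Peaks of the 10 libraries that overlapped were merged into regions, and 40 of 18176 regions lay at the 10 genes.

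The mice carried 2 labelled genotypes, TXNIP KO and wild type. TXNIP is a thioredoxin-binding arrestin that limits glucose uptake. The wild type groups were held at room temperature, in the cold for 40 min (first pair) and in the cold for 4 h. The TXNIP KO group and a second wild type pair were both in the cold for 40 min. Each of these 5 groups has 2 ChIP libraries, and the labels do not say that they came from separate animals. The second pair carries the replicate numbers 1.1 and 2.1, and the labels do not say whether the same tissue was used, or how the knockout was made, in which cells, or at which age and sex. All tissue was crosslinked with 2 mM DSG, a protein-to-protein crosslinker, for 25 min and then with 0.8% formaldehyde for 12 min, and HSF1 was precipitated with antibody 4356 of Cell Signaling Technology. PPARg and C/EBPa, which stand in the series title, are not the factors precipitated in the libraries analysed here.

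VEGF-A, the product of Vegfa, is the main growth signal of vessel endothelium and is made largely by the surrounding tissue, including brown adipocytes in the cold. It acts through the receptor tyrosine kinase VEGFR2 (Kdr), while VEGFR1 (Flt1) binds it tightly, signals weakly and serves largely as a trap. TIE2 (Tek) is the angiopoietin receptor that keeps vessels quiescent, EPHB4 is the ephrin-B2 receptor of venous endothelium, and endoglin (Eng) is a co-receptor for BMP9 and other TGF-beta family ligands. VE-cadherin (Cdh5) and PECAM1 join endothelial cells to each other. CLEC14A is an endothelial C-type lectin-like receptor, and the matrix protein multimerin 2 (Mmrn2) is its ligand. HSF1 binds heat shock elements, which are runs of GAA units in alternating orientation. The chromatin came from tissue and not from sorted cells, so the cell type in which a site was bound was not measured, and fewer cells of a type cannot be told apart from less binding per cell. Expression was not measured either.

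4 promoters are shown because they set the endothelial starts beside a strong heat shock element. Each is the 250 bases before a RefSeq start (GRCm38.p6), given 5′ to 3′ on the gene's strand. Capitals mark a pair of facing heat shock units, GAANNTTC or TTCNNGAA, in Clec14a, Tek and Hspe1, and the ETS core AGGAAG, the motif of a factor family prominent in endothelium, in Flt1. Hspe1, the mitochondrial co-chaperonin gene, is the comparison, since the peak at its start ranked first in 8 lists and second in both 4 h lists.

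Clec14a: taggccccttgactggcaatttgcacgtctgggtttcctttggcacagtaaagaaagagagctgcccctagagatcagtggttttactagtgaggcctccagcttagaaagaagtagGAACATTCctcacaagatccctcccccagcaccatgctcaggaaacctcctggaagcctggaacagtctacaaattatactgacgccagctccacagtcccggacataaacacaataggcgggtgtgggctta

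Tek: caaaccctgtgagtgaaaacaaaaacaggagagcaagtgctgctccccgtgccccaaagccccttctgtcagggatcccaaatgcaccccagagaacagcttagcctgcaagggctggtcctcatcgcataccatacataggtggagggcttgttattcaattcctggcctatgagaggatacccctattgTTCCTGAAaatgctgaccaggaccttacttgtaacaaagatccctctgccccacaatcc

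Flt1: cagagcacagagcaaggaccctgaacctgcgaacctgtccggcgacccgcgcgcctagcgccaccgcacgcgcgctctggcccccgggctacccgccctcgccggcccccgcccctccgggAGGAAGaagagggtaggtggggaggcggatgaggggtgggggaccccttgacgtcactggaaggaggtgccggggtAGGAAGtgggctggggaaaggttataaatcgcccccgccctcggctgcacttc

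Hspe1: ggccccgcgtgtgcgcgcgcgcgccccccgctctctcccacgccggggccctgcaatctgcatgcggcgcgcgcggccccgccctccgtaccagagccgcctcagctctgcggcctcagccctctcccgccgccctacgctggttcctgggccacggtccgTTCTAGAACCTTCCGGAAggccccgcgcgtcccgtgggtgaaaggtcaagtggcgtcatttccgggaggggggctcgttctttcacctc

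The Clec14a window lies on the minus strand at chr12:58269259-58269508 and holds 1 GAANNTTC pair, 133 bases before the start. The Tek window lies on the plus strand at chr4:94739039-94739288 and holds 1 TTCNNGAA pair, 59 bases before the start. The Flt1 window lies on the minus strand at chr5:147726012-147726261 and holds 2 AGGAAG matches, at 129 and 53 bases before the start, and neither heat shock pair. The Hspe1 window, on the plus strand at chr1:55087898-55088147, holds overlapping pairs that form alternating units 2 bases apart. The RefSeq starts of the Flt1 and Tek windows lie inside the gene spans used below. Distances from the end of a span are therefore not distances from these starts. Both strands were searched. Of 32851 promoter windows of the same length, 12.8% held either heat shock pair, 0.466% held 3 alternating units 2 bases apart, 29.5% held AGGAAG and 6.75% held the AP-1 motif TGANTCA. GAANNTTC alone was in 6.69% and TTCNNGAA alone in 7.17%. The windows of Vegfa (both starts), Kdr and Ephb4 held none of these motifs, and that of Eng held 2 AGGAAG matches. Cdh5, Pecam1 and Mmrn2 were not among the promoter sequences used here. A match is a run of letters and not a measured site.

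The lists differed greatly in length, and this bears on every count below. After the removal of 1 to 8 peaks on scaffolds, the room temperature lists held 919 and 1269 peaks, the first pair at 40 min 2287 and 1670, and the 4 h lists 123 and 351. The TXNIP KO lists held 10399 and 10633 peaks, against 12644 and 14583 in the second wild type pair. The 10 genes had 2 and 2 peaks at room temperature, 6 and 5 at 40 min in the first pair and 0 and 0 at 4 h. They had 25 and 23 peaks in the TXNIP KO libraries, against 24 and 31 in the second wild type pair. As a share of its list, that was 0.218% and 0.158% at room temperature, 0.262% and 0.299% at 40 min in the first pair, 0.24% and 0.216% in TXNIP KO and 0.19% and 0.213% in the second wild type pair. Thus the number of peaks at these genes differed more than 10-fold between lists while their share of a list stayed within 0.158% to 0.299% outside 4 h. A fold enrichment here is the authors' linear ratio of signal at a peak's summit to the local background. The lists carry no read counts, so depth is unknown, and folds of different libraries are set side by side only as descriptions. The peak at Hspe1, itself an HSF1 peak, is given as a reference in each library and not as a constant scale. Its fold was 194 and 193 at room temperature, 400 and 328 at 40 min in the first pair, 53.6 and 117 at 4 h, 1148 and 1109 in TXNIP KO and 1296 and 1210 in the second wild type pair.

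Flt1 and Pecam1 were the listed genes with a peak in both room temperature libraries, which makes 2 of 10 genes, beside 2.95% of all protein-coding genes. In the first pair at 40 min Mmrn2 joined them, for 3 of 10 genes, beside 4.97% of all genes. At 4 h the count was 0 of 10, beside 0.466% of all genes. Vegfa, Flt1, Ephb4, Eng, Pecam1, Clec14a and Mmrn2 had a peak in both TXNIP KO libraries, 7 of 10, beside 21.0% of all genes. The same 7 genes had one in both libraries of the second wild type pair, beside 26.6% of all genes. The peak lists selected the genes, and the genes were long, with a median span of 39483.5 bp against 17170 bp over all protein-coding genes, so nothing is read from these shares.

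**Figure D1:**
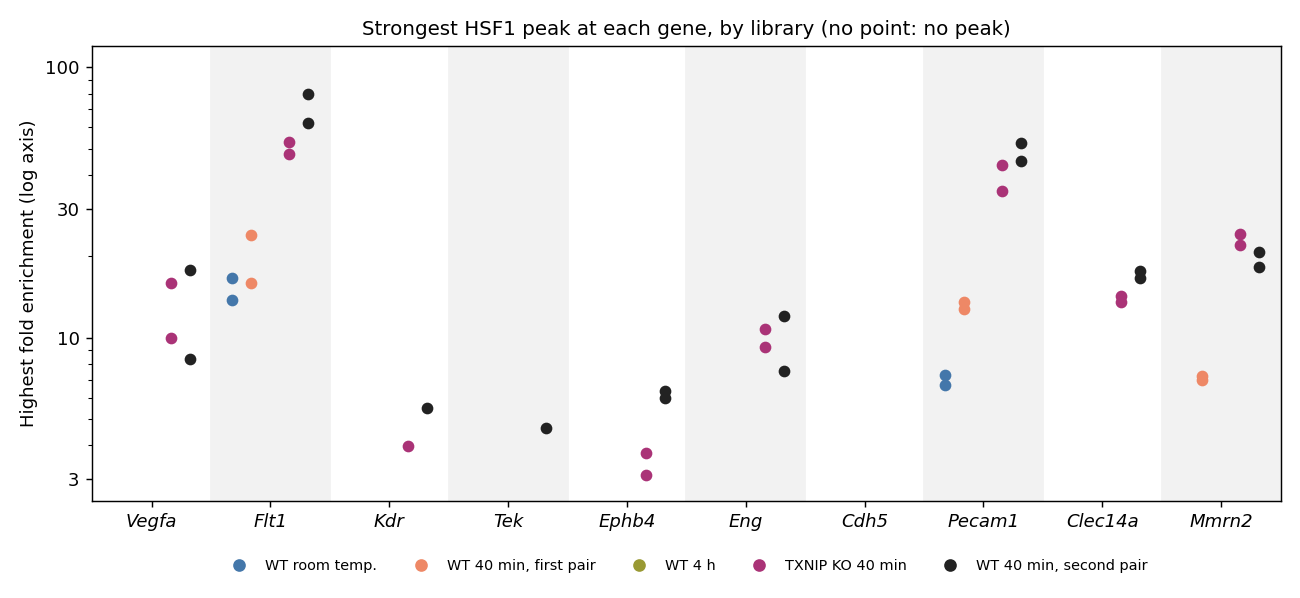
Fold enrichment (log axis) of the strongest HSF1 peak within each gene span plus 5 kb, with 1 point per library and no point where a library had no peak. Flt1 and Pecam1 carry points in 8 of 10 libraries, Cdh5 carries none, and no gene has a 4 h point.

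Most of the 40 regions were weak. In 32 of them the highest fold in any library was 3.0 to 7.96 (median 4.98), and the other 8 regions reached a fold of 10 or more somewhere, 20% of those at the genes beside 20.3% of all regions. 32 regions lay within a gene span and 8 beyond an end. 11 regions were called in 1 library, and 25 were called in both libraries of at least 1 group. Where a region was called in more than 1 library, the summits lay within 200 bp of each other in 23 of 29 cases. The gene table used here gives spans and not exons, so a position is stated as a distance from an end of the gene and not as exonic or intronic.

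At the ligand gene Vegfa (chr17:46016993-46032377, minus strand) there were 7 regions, and none was called at room temperature, at 40 min in the first pair or at 4 h. The strongest, chr17:46015181-46016804, had its summit 921 bp beyond the 3′ end of the gene. Its folds were 10.0 and 16.0 in the TXNIP KO libraries, against 8.36 and 17.8 in the second wild type pair, which enclosed the TXNIP KO values. A further region, 3231 bp beyond the same end, had folds of 7.47 and 6.91 in TXNIP KO and 7.37 and 6.86 in the second wild type pair. The other 5 regions lay inside the gene, with folds of 3.94 to 7.96. A peak over the start of Vegfa was called in 1 library, TXNIP KO replicate 2, at a fold of 4.15, with its summit 35 bp into the gene.

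The strongest region within 20 kb of Vegfa lay outside the 5 kb margin. Its summits were 11197 to 11259 bp beyond the 3′ end of the gene and fell within 62 bp of each other, in a region of chr17:46005171-46007497, and it was called in all 10 libraries, 4 h included. Its folds were 9.77 and 11.3 at room temperature, 24.9 and 20.6 at 40 min in the first pair, and 7.58 and 8.21 at 4 h. They were 71.0 and 81.6 in TXNIP KO, against 74.9 and 77.1 in the second wild type pair. At 4 h it stood at ranks 55 of 123 and 168 of 351, and the TXNIP KO values enclosed those of the second pair. It was singled out after its values were seen, and whether it acts on Vegfa was not measured.

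Flt1 (chr5:147561604-147726438, minus strand), the VEGF trap receptor, had 12 regions and the strongest member peak. That peak, in chr5:147644357-147646689, lay deep inside the gene, 81086 bp downstream of its upper end, and its summits in 8 libraries fell within 28 bp. Its folds were 13.8 and 16.6 at room temperature and 23.9 and 15.9 at 40 min in the first pair, and it was not called at 4 h. They were 52.9 and 48.0 in TXNIP KO, against 62.1 and 79.6 in the second wild type pair. The first 40 min pair overlapped the room temperature pair, and both TXNIP KO values lay below both values of the second wild type pair. By rank it stood in the top 15.1% and 9.22% of the room temperature lists, the top 7.52% and 17.1% of the first 40 min lists, the top 3.05% and 3.41% of the TXNIP KO lists and the top 2.55% and 1.63% of the second wild type lists.

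A second Flt1 region, chr5:147725418-147727335, lay over the 5′ end, with its strongest summit 437 bp beyond the gene. Its folds were 4.35 and 4.73 at 40 min in the first pair, and it was not called at room temperature or 4 h. They were 11.2 and 11.9 in TXNIP KO, against 12.5 and 17.5 in the second wild type pair. The Flt1 promoter printed above was covered by this peak in all 4 of these deeper lists, with no summit inside the 250 bases. The start of that window lies inside the gene span, so the summit stood farther from that start than from the end of the span. The other 10 Flt1 regions were spread along the gene, at 3648 to 146515 bp from its upper end, with folds of 2.92 to 7.96 in the TXNIP KO and second wild type lists.

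The signalling receptors had little. Kdr (chr5:75932827-75979072, minus strand), which encodes the main VEGF receptor, had 1 region, near its 3′ end, at a fold of 3.99 in TXNIP KO replicate 2 and 5.49 in replicate 2.1 of the second wild type pair. Tek (chr4:94739086-94874976, plus strand) had 1 peak, at a fold of 4.63 in replicate 2.1 of the second wild type pair, 91082 bp into the gene. No library called a peak over the TTCNNGAA pair of the Tek promoter printed above. Ephb4 (chr5:137350109-137374522, plus strand) had 5 regions with folds of 3.11 to 6.36 in the TXNIP KO and second wild type lists. The region at its start had summits from 231 bp before to 184 bp after the gene's first base, with a fold of 3.75 in TXNIP KO replicate 2, against 3.98 and 4.97 in the second wild type pair. Ephb4 counted as bound in both TXNIP KO libraries through different regions, since no single region was called in both. The gene Zan also overlaps the span plus 5 kb of Ephb4, and Eqtn that of Tek.

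The co-receptor gene Eng (chr2:32646595-32682669, plus strand) had 5 regions. The strongest, chr2:32648725-32650666, had its summit 3528 bp downstream of the start, with folds of 10.8 and 9.28 in TXNIP KO, against 7.57 and 12.0 in the second wild type pair. These values overlapped. At the start itself 1 library, TXNIP KO replicate 2, called a peak, at a fold of 3.95. The region 4054 bp before the start was the nearest to the 5 kb limit from inside. Its fold was 7.11 in TXNIP KO replicate 2, against 6.77 and 7.72 in the second wild type pair. The neighbouring gene Fpgs also lies within 5 kb of Eng.

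At the junction genes the result was uneven. Cdh5 (chr8:104101613-104144504) had no peak in any of the 10 libraries, and the nearest region began 189407 bp away. Pecam1 (chr11:106654213-106715281) had 5 regions, of which chr11:106674416-106675941 was called in 8 libraries with summits within 84 bp, 21081 bp inside the lower end of the gene. Its folds were 7.26 and 6.71 at room temperature and 12.8 and 13.6 at 40 min in the first pair, and it was not called at 4 h. They were 43.5 and 34.8 in TXNIP KO, against 52.4 and 45.1 in the second wild type pair. Both values of the first pair at 40 min were above both room temperature values, and both TXNIP KO values were below both of the second wild type pair.

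Set against the Hspe1 peak of the same library, this Pecam1 peak varied less than its own folds did. It had 3.73% and 3.48% of the Hspe1 fold at room temperature, 3.2% and 4.14% at 40 min in the first pair, 3.79% and 3.14% in TXNIP KO and 4.04% and 3.73% in the second wild type pair. The Flt1 peak inside the gene had 7.1% and 8.61% at room temperature, 5.97% and 4.84% at 40 min in the first pair, 4.61% and 4.33% in TXNIP KO and 4.79% and 6.58% in the second wild type pair. As a percent of the Hspe1 fold the Pecam1 values of the 4 groups overlapped, and the Flt1 values were highest in the room temperature libraries. The Hspe1 fold was itself higher at 40 min (400 and 328, first pair) than at room temperature (194 and 193). Its own difference between groups is therefore part of these percentages, and neither pattern was tested.

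A second Pecam1 region, chr11:106658887-106661225, lay 6592 bp inside the same end. Its folds were 7.25 and 7.51 at 40 min in the first pair, 14.2 and 10.7 in TXNIP KO and 19.7 and 24.5 in the second wild type pair, with no call at room temperature or 4 h. The remaining 3 Pecam1 regions were weak, with folds of 3.09 to 4.98.

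Clec14a (chr12:58264720-58269258, minus strand), the shortest gene of the list, had 1 region, chr12:58268594-58269775, and it lay over the start. Its folds were 14.3 and 13.6 in TXNIP KO, against 16.7 and 17.7 in the second wild type pair, and no other group called it. All 4 summits fell inside the promoter window printed above, 55 and 6 bp from the GAANNTTC pair in TXNIP KO and 79 and 74 bp from it in the second wild type pair. Of the 7 listed genes with a promoter sequence here, Clec14a was the one with a peak summit inside its promoter window in every library that called a peak at the gene. Mmrn2 (chr14:34375504-34404287), whose protein binds CLEC14A, had its strongest region at chr14:34375057-34376850, with the summit 520 bp inside the lower end. The neighbouring gene Sncg also lies within 5 kb. The folds there were 7.01 and 7.24 at 40 min in the first pair, 24.3 and 22.1 in TXNIP KO and 18.2 and 20.7 in the second wild type pair, with no call at room temperature or 4 h. Both TXNIP KO values were above both values of the second wild type pair. The other Mmrn2 regions had folds of 3.16 to 5.6.

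**Figure D2:**
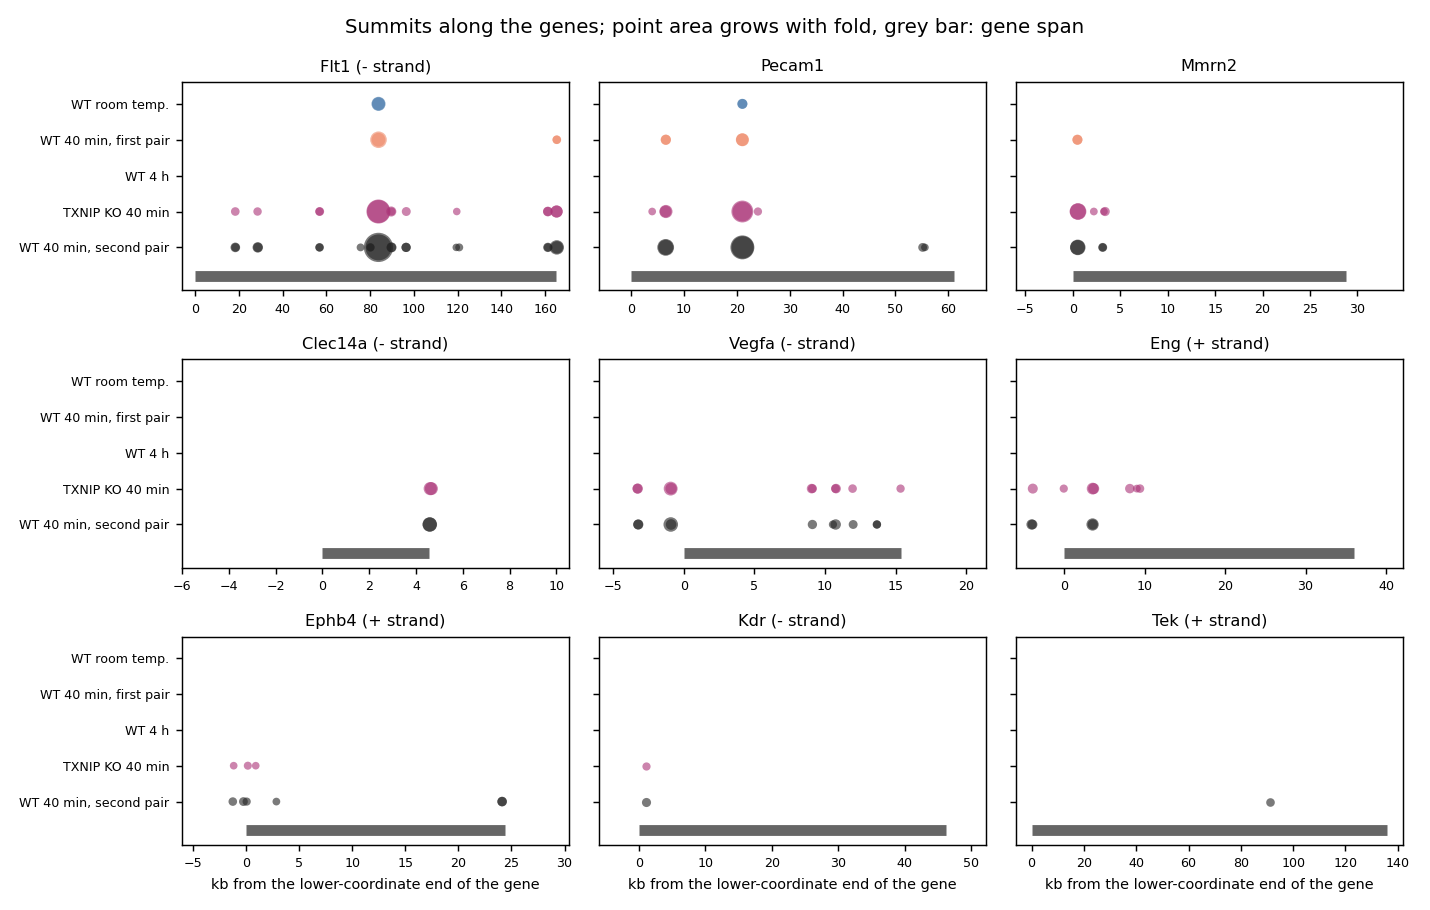
Peak summits along 9 of the genes, in kb from the lower-coordinate end, with the gene span as a grey bar, 1 row per group, point area growing with fold and both libraries of a group drawn on the same row. Cdh5, with no peak, is left out. The large points at Flt1 and Pecam1 sit at the same place in every row except 4 h, while the Clec14a points sit at the start of the gene.

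The comparison of cold with room temperature asks where HSF1 binding appears or grows within 40 min. At the listed genes 3 regions were called in both libraries of the first pair at 40 min and in neither room temperature library, beside 2.2% of all regions: the 5′ region of Flt1, the second Pecam1 region and the strong Mmrn2 region. Calls in the opposite direction numbered 0, beside 0.0275%. Both Flt1 and Pecam1 regions already present at room temperature were present in both 40 min libraries. Of these 2 regions, the Pecam1 one had both 40 min folds above both room temperature folds, as 79.9% of the 750 regions called in all 4 libraries did, and neither had both below, beside 1.47%. On the log2 scale the mean fold of the first pair at 40 min minus that at room temperature was 0.92 for Pecam1 and 0.36 for Flt1, around a median of 0.64 over all 750 regions. Relative to that median the Pecam1 difference was 0.28 and the Flt1 difference was -0.28. 2 libraries against 2 cannot give a two-sided exact permutation p below 0.33.

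At 4 h no region at the listed genes was called in either library. Against room temperature, 2 regions were called in both libraries of the earlier group and in neither at 4 h, beside 2.84% of all regions, and 0 the other way, beside 0.0165%. Against the first pair at 40 min the counts were 5 and 0, beside 6.21% and 0.0055%. The 4 h lists were the shortest of all. Of the 109 other regions that stood at least as high as the Flt1 peak in both room temperature lists, 57 were called in both 4 h libraries, 37 in 1 and 15 (13.8%) in neither. Of the 424 that stood at least as high as the Pecam1 peak, 82 were called in both 4 h libraries and 219 (51.7%) in neither. Counted from the first pair at 40 min, 38 of 170 regions as high as the Flt1 peak (22.4%) and 139 of 365 as high as the Pecam1 peak (38.1%) were called in neither 4 h library. These sets hold all stronger regions too, so they do not give the share for regions of similar rank. With the lists cut to the length of the shortest 4 h list (123 peaks) the counts of 2 and 5 were 0 and 0. That outcome was fixed by the cut, because no region at the genes stood within rank 123 in both libraries of an earlier group. The highest, the Flt1 peak inside the gene, ranked 139 and 117 at room temperature. Nothing about 4 h is read from it.

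**Figure D3:**
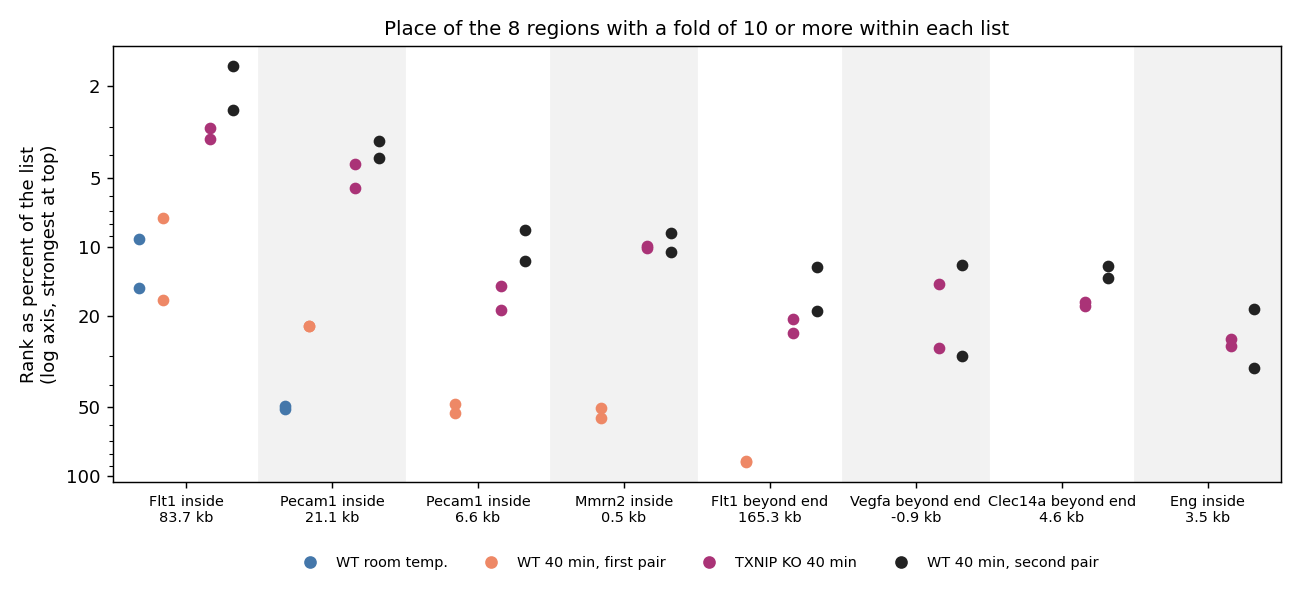
Rank of each of the 8 regions that reached a fold of 10, as a percent of the list of its library (log axis, strongest at the top), with 1 point per library; labels give the distance of the summit from the lower end of the gene. The Flt1 region inside the gene stands highest in every list that called it, between the top 17.1% and the top 1.63%.

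The TXNIP KO comparison asks whether HSF1 binding after 40 min of cold differs without TXNIP, and the second wild type pair served as its control. The deletion could not be checked from peak lists. Within 5 kb of Txnip the TXNIP KO libraries had 4 and 6 peaks and the second wild type pair 4 and 5. At the listed genes 1 region was called in both TXNIP KO libraries and in neither of the second wild type pair, beside 1.09% of all regions. It lay inside Eng, with folds of 4.56 and 3.36 and summits 392 bp apart. Calls in the opposite direction numbered 4, at Vegfa, Flt1, Pecam1 and Ephb4, with folds of 3.09 to 6.36, beside 7.34% of all regions. The TXNIP KO lists were the shorter ones, and with all 4 lists cut to the length of the shortest (10399 peaks) the counts were 1 and 2 in place of 1 and 4.

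14 regions at the genes were called in all 4 of these libraries. The folds of both TXNIP KO libraries lay below both of the second wild type pair at 5 of them, beside 39.1% of the 7131 regions called in all 4, and above at 1, beside 10.6%. The 5 were the first and second Pecam1 regions, the Clec14a start and the Flt1 peaks inside the gene and at its 5′ end, and the 1 was Mmrn2. As TXNIP KO minus second pair, the log2 difference was -0.84 at the second Pecam1 region, -0.48 at the Flt1 peak inside the gene, -0.36 at the 5′ end of Flt1, -0.32 at the first Pecam1 region, -0.30 at Clec14a and 0.26 at Mmrn2. The median over all 7131 regions was -0.16, with quartiles of -0.38 and 0.05, and over the 14 regions it was -0.05. Of all regions, 3.56% had a lower difference than the second Pecam1 region and 90.5% a lower one than Mmrn2. At Vegfa and Eng the differences of the strongest regions were 0.05 and 0.07, with overlapping values. Whether the same input served both groups is not given in the labels.

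**Figure D4:**
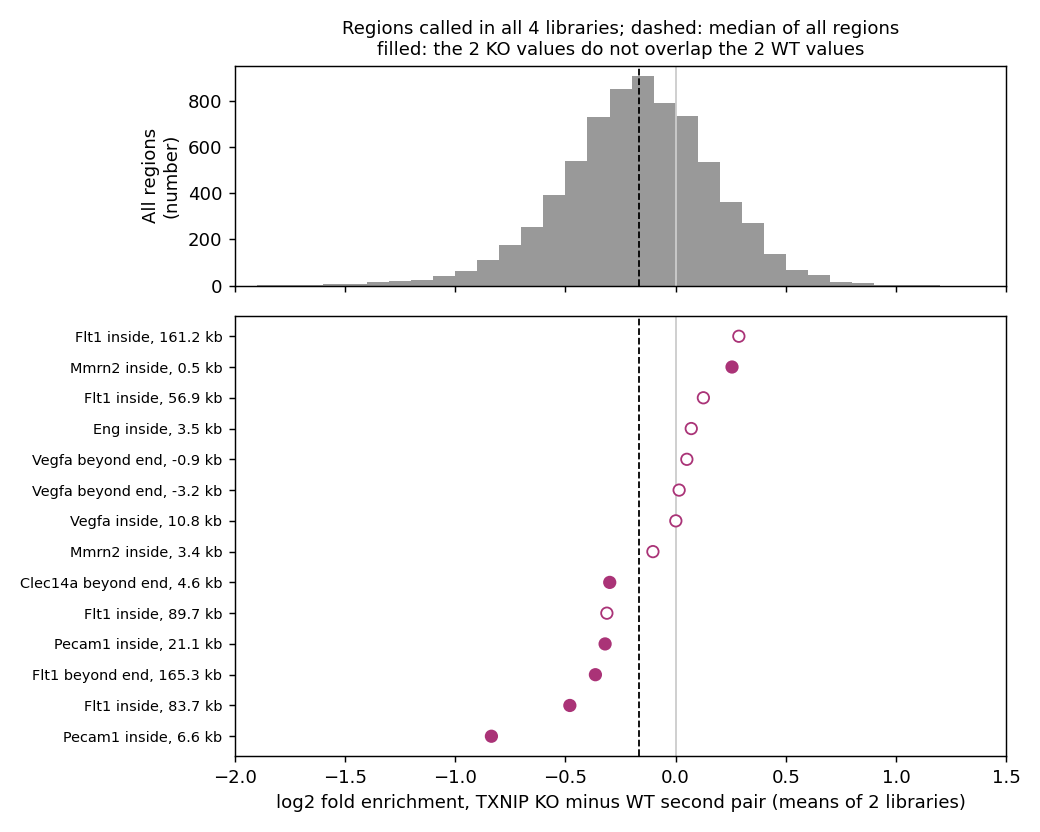
Difference in log2 fold enrichment, TXNIP KO minus the second wild type pair, as a histogram of all 7131 regions called in the 4 libraries (top) and for the 14 regions at the listed genes (bottom, filled where the 2 TXNIP KO values do not overlap the 2 wild type values). The dashed line is the median of all regions, -0.16, and the second Pecam1 region at -0.84 lies farthest from it.

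The 2 wild type pairs at 40 min carry the same labels, and they differed more from each other than TXNIP KO did from the second pair. 18 regions at the genes were called in both libraries of the second pair and in neither of the first, beside 43.8% of all regions, and 0 the other way, beside 0.0055%. All 5 regions called in all 4 libraries had higher folds in both libraries of the second pair, as did 99.7% of 1461 such regions, and 0 had lower ones, beside 0.137%. The log2 difference, second pair minus first, was 1.88 and 1.57 at the Pecam1 regions, 1.85 and 1.71 at the Flt1 regions and 1.45 at Mmrn2, against a median of 1.97 over all regions. Cold was therefore compared only with the first pair and genotype only with the second, a choice that the labels do not settle.

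When each list was cut to its strongest 919 peaks, the length of the shortest room temperature list, with the shorter 4 h lists left whole, Flt1 and Pecam1 remained in all 8 libraries other than 4 h. None of the other 8 genes had a peak in any list of that length. The calls at Vegfa, Kdr, Tek, Ephb4, Eng, Clec14a and Mmrn2 thus stood below rank 919 wherever they were made, although the strongest Mmrn2 region was in the top 8.71% to 10.5% of the 4 long lists and the Clec14a region in the top 12.1% to 18.1%. The regions just outside the 5 kb limit were 5227 bp from Pecam1, with folds of 5.99 to 7.72 in 4 libraries, and 6045 bp from Vegfa, with folds of 4.66 to 16.3 in 4 libraries. The next were 8253 bp from Eng, 9591 bp from Kdr and 10222 bp from Ephb4, with folds of 2.92 to 5.18.

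Other vessel genes were counted in the same way. Of 12 VEGF and angiopoietin ligands, receptors and partners, 2 had a peak of both libraries at room temperature (Tie1 and Nrp1), 3 at 40 min in the first pair, with Nrp2 added, 0 at 4 h, 5 in TXNIP KO and 7 in the second wild type pair. Of 17 genes for endothelial transcription factors the counts were 1, 2, 0, 10 and 14 in the same order of groups. Of 12 Notch, ephrin and BMP signalling genes they were 0, 1, 0, 8 and 8, of 19 endothelial surface and junction genes 0, 0, 0, 6 and 8, and of 10 vascular tone genes 1, 1, 0, 3 and 4. Lists of other cells were counted too. Of 12 adipocyte genes 1, 1, 0, 9 and 10 had a peak of both libraries, of 11 pericyte and smooth muscle genes 0, 0, 0, 2 and 4, of 5 lymphatic endothelial genes 0, 0, 0, 0 and 1, and of 12 leukocyte genes 0, 0, 0, 1 and 1. None of 9 olfactory receptor genes, taken as silent without a measurement, had a peak in any library. They were short, with a median span of 1731 bp against 39483.5 bp for the 10 genes. The percentages of all protein-coding genes given above are the background of these counts too. They were 2.95% at room temperature, 4.97% in the first pair at 40 min, 0.466% at 4 h, 21.0% in TXNIP KO and 26.6% in the second wild type pair. The leukocyte and lymphatic lists were below the last 2, with 8.33% and 8.33% of leukocyte genes and 0% and 20% of lymphatic genes. The pericyte and smooth muscle list was below in TXNIP KO (18.2%) and above in the second wild type pair (36.4%). Calls at vessel genes and at adipocyte genes thus stand in the same libraries, and no list says in which cells HSF1 was bound.

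**Figure D5:**
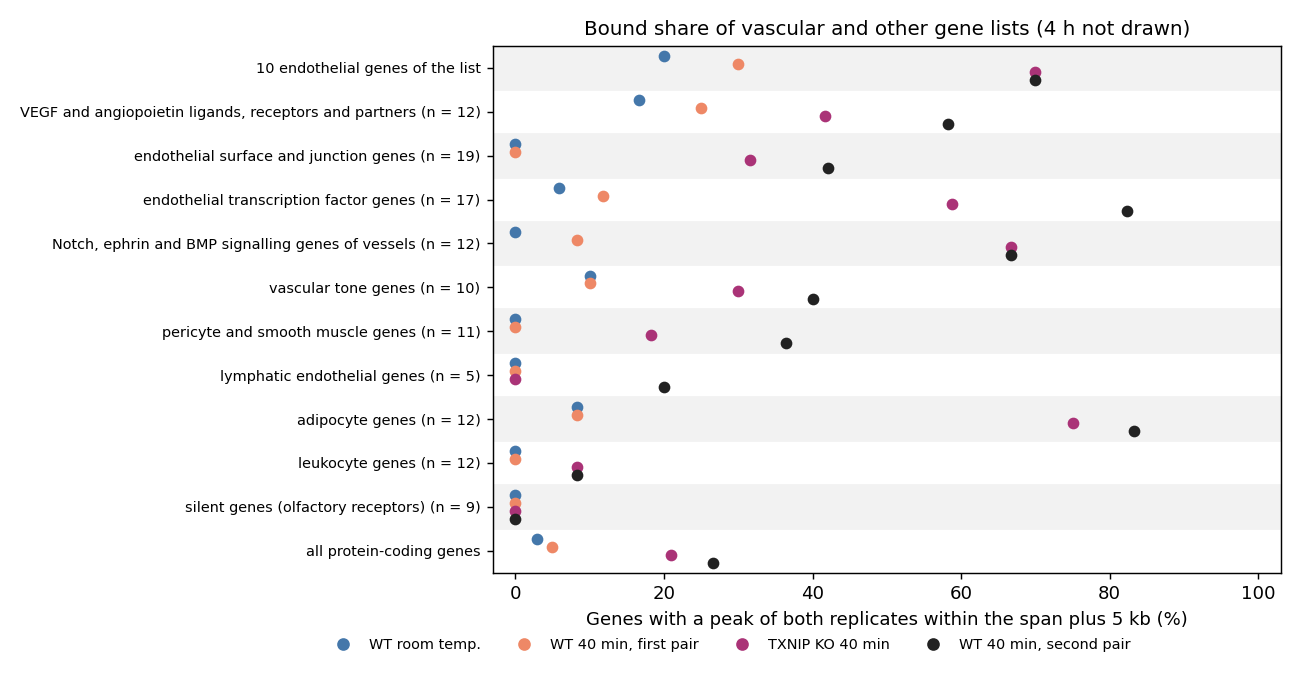
Percent of the genes of each list with a peak of both libraries within the span plus 5 kb, by group, with all protein-coding genes in the bottom row; the 4 h group, at 0 in every list and 0.466% of all genes, is not drawn. The 10 listed genes (top row) reach 70.0% in TXNIP KO and in the second wild type pair, the adipocyte list 75% and 83.3%, and all genes 21.0% and 26.6%.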

How the data were processed

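The data are HSF1 ChIP-seq peak lists of mouse BAT, 10 ChIP libraries in 5 groups of 2, out of 15 samples. The 5 inputs were not analysed here, and the title and treatment of 1 of them disagree. The submitters' processing notes name the build GRCm38.p6 (mm10) and, as tools, MACS2 2.2.7.1, BWA 0.7.17, Trim Galore 0.6.0, deepTools 3.4.3 and SAMtools. Peaks were deposited per library, without pooling. The deposited columns are a fold enrichment (a linear ratio at the summit), the −log10 p and −log10 q of the authors' peak caller (lowest −log10 q 1.30) and an integer score, not used here. Filters, duplicate handling and the input of each library: not given in the sources used here. Without read counts the depth is unknown and no interval was computed.

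Peaks on chromosomes 1 to 19, X and Y were kept and ranked by −log10 p (python 3.11.15, pandas 2.3.3). Regions were peaks of all libraries merged at 1 bp. A gene was bound in a group when each of its libraries had a peak within the span plus 5 kb. Gene spans and promoters came from RefSeq tables of GRCm38.p6, and positions are 1-based. The joins were tested on simulated peaks. No test was made: the peak lists chose the genes. Members, lists and alternatives were chosen with earlier results of these data known. All 10 genes were named, with up to 4 genes of each other list, those with a peak in the most libraries, and Hspe1 as a reference in each library. The alternatives were the span alone or plus 20 kb, summits in place of overlap, −log10 q of 3 or more, equal list length, summits within 200 bp and each library left out.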

Additional observations from a re-analysis of the deposited data

How the results depend on the processing

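Of the alternatives to the 15 counts of bound genes and of regions called in 1 group and not another, 111 values stayed within 1.5 times and 14 did not. Many of the 111 were 0 against 0, at counts with little room to move. At equal list length the bound genes were 2 in TXNIP KO and 2 in the second wild type pair, in place of 7 and 7. On the same basis the regions called at 40 min and not at room temperature numbered 0, those called at room temperature or at 40 min and not at 4 h numbered 0 and 0, those lost in TXNIP KO against the second pair 2, and those called in the second pair and not the first 0. The 0 and 0 for 4 h were fixed by the cut at 123 peaks, as stated above. With a margin of 20 kb, 1 gene, Vegfa, was bound at 4 h. With summits within 200 bp, the region gained in TXNIP KO inside Eng was no longer counted, leaving 0. With 1 library of either group left out, regions gained in TXNIP KO against the second pair ranged from 1 to 6 (3 without TXNIP KO replicate 1), and regions lost ranged from 4 to 8. The highest of these came without TXNIP KO replicate 2 (6 gained) and without replicate 1.1 of the second pair (8 lost). No paired analysis was possible because the counts come from no test. Unknown depth, and 2 libraries a group, limit all differences in calls and folds.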

Other observations

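Several vessel genes outside the 10 had peaks in as many libraries as Flt1 and Pecam1, which had them in 8. The adipocyte gene Lipe also had peaks in 8, so this was not particular to vessel genes. Its highest folds were 9.77 and 10.9 at room temperature and 21.3 and 14.5 at 40 min in the first pair. They were 46.3 and 47.1 in TXNIP KO and 49.4 and 63.5 in the second wild type pair, with no peak at 4 h. Tie1, the orphan receptor that partners TIE2, had folds of 12.6 and 13.7 in the room temperature libraries, 13.5 and 20.6 at 40 min in the first pair, 52.5 and 47.8 in TXNIP KO and 72.3 and 73.1 in the second wild type pair. It had 1 region, called in 8 libraries, whereas Tek, which encodes TIE2 itself, had 1 peak in 1 library. Nrp1, a VEGF co-receptor, had 11 regions, and its highest folds were 8.58 and 7.57 in the room temperature libraries. In the first pair at 40 min they were 16.2 and 14.5. They were 32.0 and 31.0 in TXNIP KO and 54.9 and 50.5 in the second wild type pair. At both genes the TXNIP KO values were below both of the second wild type pair, beside 39.1% of the 7131 regions called in all 4 libraries. That share counts single regions, whereas these are highest folds per gene, and the Nrp1 values need not come from 1 region. The same order held at Lipe, at Hspe1, and at Epas1, Ece1 and Acvrl1 below, so it was not particular to Tie1 and Nrp1. Neither Tie1 nor Nrp1 had a peak at 4 h.

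Epas1, which encodes the hypoxia factor HIF-2 alpha, had highest folds of 6.91 and 9.02 in the room temperature libraries, 15.7 and 16.7 at 40 min in the first pair, 52.7 and 46.4 in TXNIP KO and 53.6 and 64.7 in the second wild type pair. Ece1, the enzyme that matures endothelin, was the vascular tone gene with peaks in the most libraries, 9 of 10, and its 4 h peak had a fold of 9.28 in replicate 2. Its highest folds were 62.7 and 53.4 in TXNIP KO and 71.5 and 66.5 in the second wild type pair. Acvrl1, the kinase receptor that signals with endoglin, was not called at room temperature or 4 h. Its highest folds were 8.22 and 10.0 at 40 min in the first pair. They were 24.9 and 17.4 in TXNIP KO and 27.9 and 33.1 in the second wild type pair. Epas1, Ece1 and Acvrl1 are also expressed outside endothelium to differing degrees, and the cells behind these peaks were not measured.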
